A study of Mus musculus with 6 samples.

Results

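The Notch receptors, their Jagged ligands, the nuclear factor Rbpj and the Notch target genes Hes1, Hey1 and Nrarp were examined in AY-mICC, a line of mouse cells. The labels do not say where the line comes from, and the study's title concerns intrahepatic cholangiocarcinoma, which is a tumour that arises from bile ducts within the liver. The cells grew in DMEM with serum and had no treatment. The 10 genes were picked by name, for their place in the pathway, out of the 55414 gene identifiers of the deposited table. They were picked with earlier results of these data known. All 10 passed the filter on low counts that left 14807 genes for testing. Messenger RNA was sequenced from 3 libraries of cells with a Copa knockdown (shCopa) and from 3 libraries of control cells (shCon) of the same line. The labels do not say how many hairpins were used or whether replicates were separate cultures. P-values therefore measure the spread between these libraries, which may be technical. Copa encodes a subunit of COPI, the coat of vesicles that carry proteins back out of the Golgi towards the endoplasmic reticulum.

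Notch signalling runs between neighbouring cells. A Jagged or Delta-like ligand on one cell pulls on a Notch receptor of the next, proteases then cut the receptor, and its intracellular part enters the nucleus, where it joins the DNA-binding protein RBPJ and a Mastermind coactivator to switch on genes such as Hes1. Receptors reach the cell surface through the endoplasmic reticulum and Golgi apparatus, where they are glycosylated and cleaved by furin. In the liver, Jag1 and Notch2 are needed for the formation of bile ducts, and in humans inherited mutations of either gene cause Alagille syndrome, in which bile ducts are too few.

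Copa stood at 186, 182 and 187 CPM (counts scaled by library size) in shCopa 1 to 3, against 420, 517 and 527 CPM in shCon 1 to 3, which left 37.9% of the control level (log2 fold change -1.40 ± 0.11 (SE), edgeR adjusted p = 0.000149). Library totals ran from 19634938 to 24546204 estimated counts. The library shCon 1 stood apart from its group, and did so by transcript length. Its log2 CPM minus the mean of shCon 2 and shCon 3 had a median of 0.44 over 3711 tested genes with at most 2 kb of exon and of -0.49 over 2283 genes with more than 6 kb, while for shCopa 1 against shCopa 2 and 3 these medians were -0.06 and 0.02. Notch1, Notch2, Notch3, Notch4 and Rbpj each have over 6 kb of exon, and Hes1 has 1468 bases. Values without shCon 1 are therefore given for each of the 10 genes. Of 12 bile duct markers, 1 rose, 5 fell, 5 did not pass and Epcam, under 1 CPM in every library, was not tested. Krt7, Krt8, Krt18, Cdh1 and Spp1 fell and Cftr rose. Krt7 was at 250, 269 and 232 CPM in shCopa and 820, 629 and 590 CPM in shCon, while Krt19, at 522, 556 and 533 CPM in shCopa and 622, 534 and 534 CPM in shCon, did not pass. The sum of the 12 was 8586 to 9068 CPM in shCopa and 11467 to 14587 CPM in shCon. In a bulk sample, fewer cells of a type and less RNA per cell cannot be told apart.

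Of the 10 genes, 3 rose in shCopa (Notch3, Jag1 and Jag2), 1 fell (Notch1) and 6 did not pass (adjusted p under 0.05 over all 14807 genes, from edgeR's quasi-likelihood test with Benjamini-Hochberg adjustment). Across all tested genes 36.5% passed, 18.2% higher and 18.4% lower in shCopa, so a share of 40% among 10 genes was near the background. The groups did not overlap in 6 of the 10 genes, against 54% of all tested genes. The median log2 fold change of the 10 genes was -0.26, beside -0.01 for all tested genes, and their values ran from -1.0 to 3.95. The receptors Notch2 and Notch4, the nuclear effector Rbpj and the 3 target genes did not pass. Rbpj and Hes1 lay near the threshold (edgeR adjusted p = 0.0621 and 0.0717) and passed in some other fits. The calls therefore do not set receptors and ligands apart from the nuclear effector and targets.

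**Figure D1:**
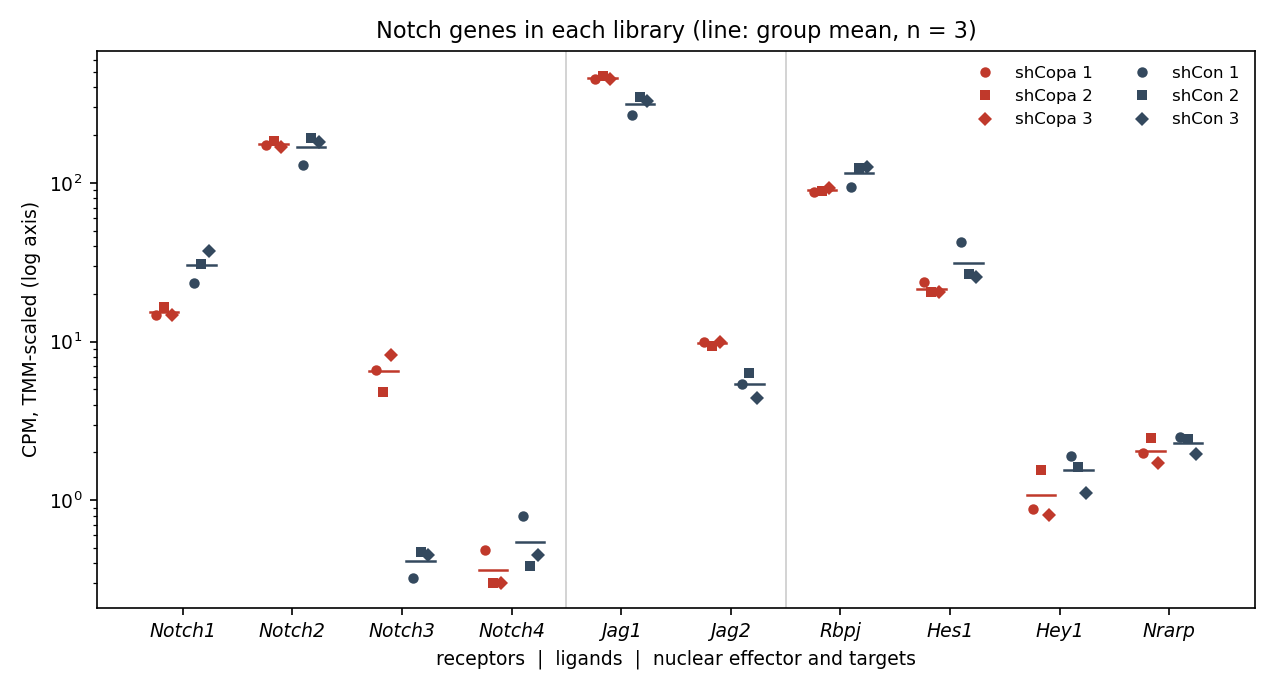
Level of each Notch gene in each library, in TMM-scaled CPM on a log axis, with shCopa libraries in red to the left of shCon libraries in dark blue and a line at each group mean (n = 3). Notch3 stands between 4.8 and 8.24 CPM in shCopa and under 0.5 CPM in shCon, while Notch2 and Jag1 are the most abundant receptor and ligand in both groups.

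The receptor genes moved in different directions. Notch3 (ENSMUSG00000038146), a receptor best known from the mural cells of blood vessels and also found in several carcinomas, had 149, 111 and 163 counts in shCopa, against 7, 11 and 11 counts in shCon. These correspond to 6.6, 4.8 and 8.24 CPM in shCopa and 0.325, 0.472 and 0.452 CPM in shCon. The groups were far apart, with every shCopa library well above every shCon library. The fitted change was 15.4-fold (log2 fold change 3.95 ± 0.30 (SE), edgeR adjusted p = 0.000134), and 69 of 14807 tested genes had a higher log2 fold change. With each library left out in turn the log2 fold change of Notch3 stayed between 3.75 and 4.13, with 3.8 without shCon 1, and passed each time.

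Notch1, the receptor with the broadest roles in development, blood and skin, went the other way. It stood at 14.7, 16.5 and 14.7 CPM in shCopa, against 23.5, 30.7 and 37.3 CPM in shCon. All shCopa libraries lay below all shCon libraries, and the shCon libraries were more spread. The level in shCopa was 50.1% of that in shCon (log2 fold change -1.0 ± 0.17 (SE), edgeR adjusted p = 0.00403). Without shCon 1 the log2 fold change was -1.15, and over all fits with 1 library left out it ran from -1.15 to -0.84 and passed each time. An annotated transcript on the opposite strand, 0610009E02Rik, overlaps Notch1 and had 35, 13 and 29 counts in shCopa and 99, 31 and 73 counts in shCon. Whether the counting used strand is not stated, so reads from the overlap cannot be told apart.

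Notch2, the receptor tied to bile duct formation, was at 173, 183 and 169 CPM in shCopa, against 129, 193 and 181 CPM in shCon. The groups overlapped, with shCon 1 lowest of all 6 libraries. The log2 fold change was 0.06 ± 0.15 (SE) and did not pass (edgeR adjusted p = 0.768). Without shCon 1 it was -0.10 ± 0.06 and still did not pass (adjusted p = 0.165). Notch4, a receptor known mainly from endothelium, had 11, 7 and 6 counts in shCopa and 17, 9 and 11 counts in shCon, all under 1 CPM, and its log2 fold change of -0.55 ± 0.44 (SE) did not pass (adjusted p = 0.365). Without shCon 1 it was -0.20 ± 0.57.

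Because the genes differ in length, levels were compared between genes as CPM per kb of exon. On this scale Notch2 made up 87%, 88% and 86% of the summed level of the 4 receptors in shCopa and 82.2%, 84.5% and 80.9% in shCon. Notch1 made up 8.22%, 8.78% and 8.24% in shCopa, against 16.7%, 14.9% and 18.5% in shCon. Notch3 held 4.35%, 3.03% and 5.48% in shCopa and 0.265% to 0.273% in shCon. Notch2 was thus the leading receptor transcript in every library, and Notch3 stood above Notch4 in each shCopa library, while both were under 1% in each shCon library. The summed receptor level was 18.9, 19.8 and 18.8 CPM per kb in shCopa and 14.9, 21.7 and 21.3 CPM per kb in shCon, so the groups overlapped. Their means were 19.1 ± 0.543 in shCopa and 19.3 ± 3.81 in shCon (SD, n = 3 each), or 21.5 in shCon without shCon 1.

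**Figure D2:**
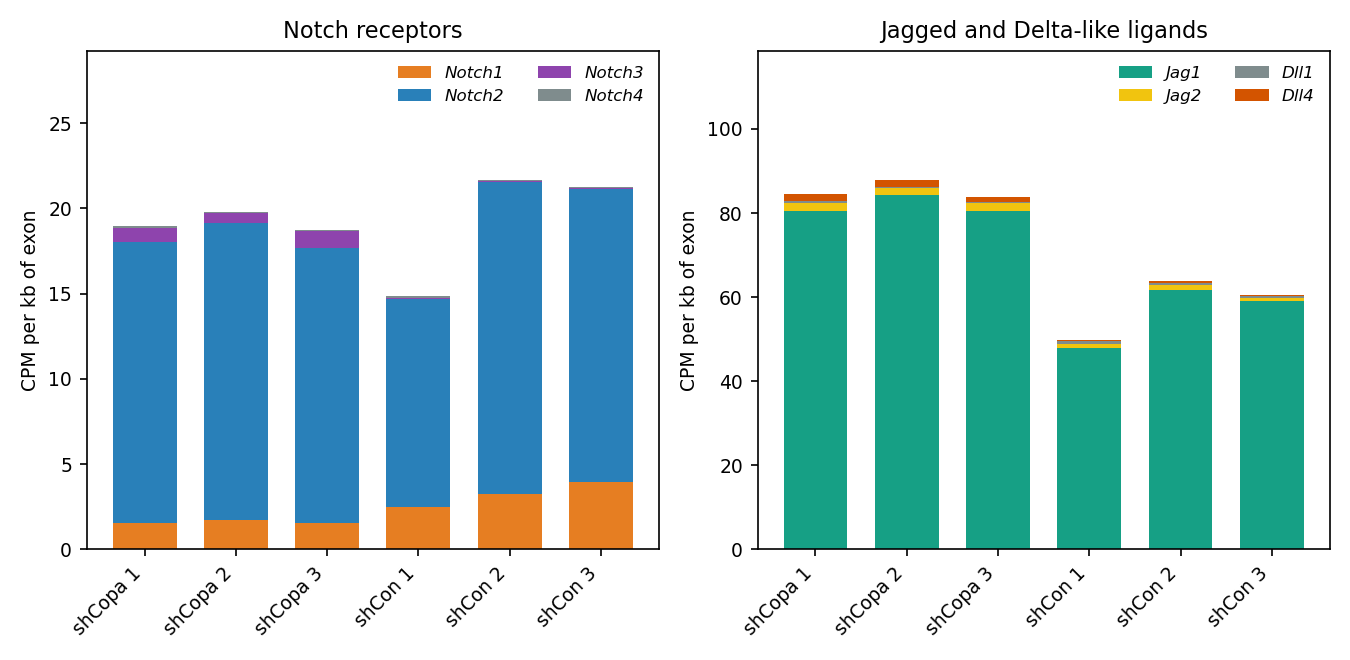
Summed level of the 4 Notch receptor genes (left) and of the Jagged and Delta-like ligand genes (right) in each library, as CPM per kb of exon, stacked by gene. Receptor sums of 18.8 to 19.8 in shCopa lie within the 14.9 to 21.7 of shCon, while ligand sums of 83.8 to 87.8 in shCopa lie above the 50 to 63.7 of shCon.

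Jag1 and Jag2, which encode the Jagged ligands, both rose. Jag1 stood at 452, 472 and 451 CPM in shCopa, against 269, 346 and 331 CPM in shCon. The groups did not overlap, and the shCopa libraries lay close together. The rise was 1.45-fold (log2 fold change 0.54 ± 0.11 (SE), edgeR adjusted p = 0.00832), and 0.44 on the log2 scale without shCon 1. Jag2 was at 10, 9.34 and 9.91 CPM in shCopa, against 5.43, 6.31 and 4.4 CPM in shCon, again with no overlap. It rose 1.81-fold (log2 fold change 0.86 ± 0.17 (SE), edgeR adjusted p = 0.00601), and the log2 fold change was also 0.86 without shCon 1. Both calls held with each library left out in turn.

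Of the other ligand genes, Dll4, a Delta-like ligand prominent in sprouting blood vessels, was at 6.07, 5.88 and 4.65 CPM in shCopa and at 1.3, 1.46 and 0.74 CPM in shCon. It rose 4.74-fold (log2 fold change 2.25 ± 0.28 (SE), edgeR adjusted p = 0.000909). Cntn1, a cell adhesion protein that has also been described as a Notch ligand, fell to 0.664 ± 0.171 CPM in shCopa, against 2.69 ± 0.245 CPM in shCon (log2 fold change -2.02 ± 0.27). Of the 8 genes in this list 1 rose, 1 fell and 2 did not pass, and 4 were too low to test. Per kb of exon, Jag1 made up 95.2% to 95.9% of the summed level of Jag1, Jag2, Dll1 and Dll4 in shCopa and 96% to 97.6% in shCon. That sum was 84.5, 87.8 and 83.8 CPM per kb in shCopa, against 50, 63.7 and 60.4 CPM per kb in shCon, and the groups did not overlap.

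Rbpj and the target genes were lower in shCopa on average without passing. Rbpj was at 88.2, 88.9 and 93.6 CPM in shCopa, against 94.8, 125 and 126 CPM in shCon. The groups did not overlap, but shCon 1 lay just above the shCopa libraries. The log2 fold change was -0.35 ± 0.13 (SE, edgeR adjusted p = 0.0621). Without shCon 1 it was -0.48 ± 0.06 and passed (adjusted p = 1.01e-06). In that fit 8439 of 15273 tested genes passed, against 5411 of 14807 with all libraries.

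Hes1, which encodes a repressor and is the best known direct target of Notch, stood at 23.7, 20.5 and 20.4 CPM in shCopa, against 42.2, 26.6 and 25.5 CPM in shCon. Again the groups did not overlap, and here shCon 1 was the highest library. The log2 fold change was -0.55 ± 0.20 (SE, edgeR adjusted p = 0.0717). Without shCon 1 it was -0.28 ± 0.09 and passed (adjusted p = 0.0156), and without shCon 3 it was -0.69 and passed (adjusted p = 0.0453). DESeq2 called both genes lower, with adjusted p = 0.0411 for Rbpj and 0.0469 for Hes1. The size of the Hes1 difference thus changed by more than its SE with 1 library, and its sign did not change in any of the fits that left out 1 library.

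Hey1, a repressor related to Hes1, had 20, 36 and 16 counts in shCopa and 41, 38 and 27 counts in shCon, and Nrarp, whose product limits Notch activity as a feedback inhibitor, had 45, 57 and 34 counts in shCopa and 54, 57 and 48 counts in shCon. In both genes the groups overlapped. Their log2 fold changes were -0.50 ± 0.36 (SE, edgeR adjusted p = 0.31) and -0.16 ± 0.23 (SE, edgeR adjusted p = 0.622). Without shCon 1 the log2 fold change of Hey1 was -0.33 ± 0.39 and that of Nrarp -0.10 ± 0.28, and neither passed. Whether a change of the size seen for Rbpj could be detected at these counts was not tested. Gm38287, an annotated transcript on the opposite strand that overlaps Nrarp, had 0 to 18 counts a library.

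**Figure D3:**
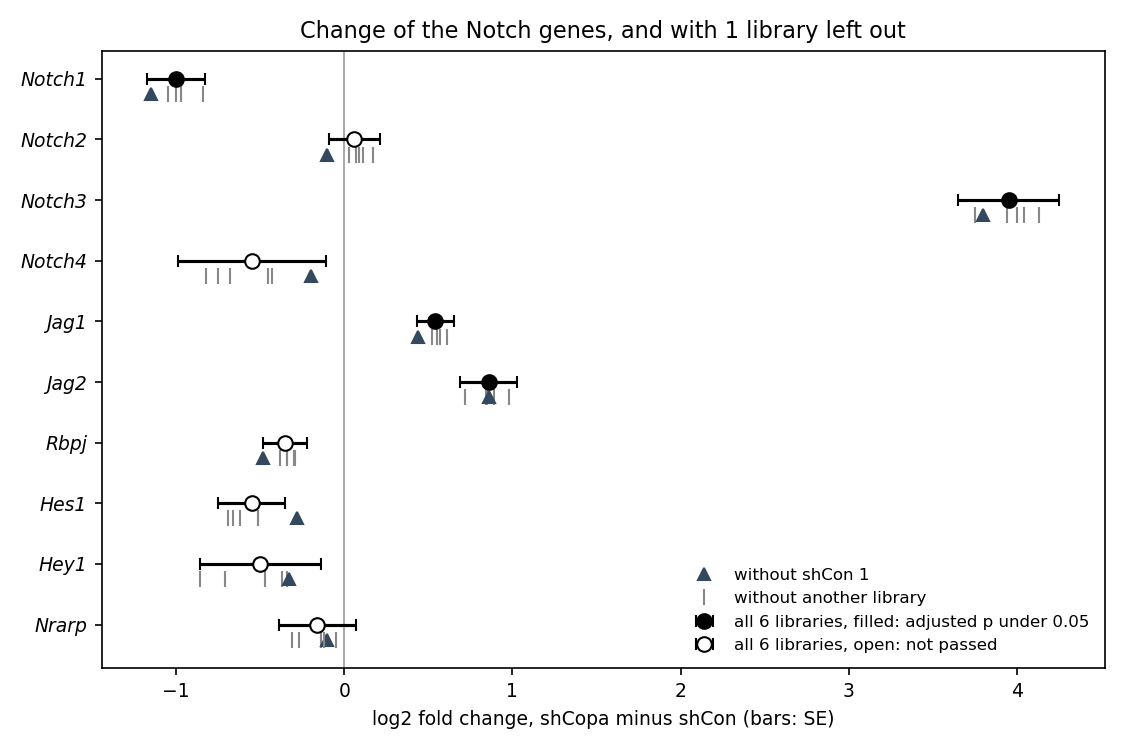
Log2 fold change of each Notch gene, shCopa minus shCon, with its SE as a bar, where filled circles passed the adjusted p of 0.05, triangles give the fit without shCon 1 and ticks the fits without each other library. Notch3 lies at 3.95 and Notch1 at -1.0 with little movement, while Hes1 moves to -0.28 and Rbpj to -0.48 without shCon 1.

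By level per kb of exon, the order in shCopa was Jag1 (81.7 ± 2.16 CPM per kb), Notch2 (16.7 ± 0.648), Hes1 (14.7 ± 1.28), Rbpj (13 ± 0.421), Jag2 (1.91 ± 0.071), Notch1 (1.61 ± 0.107), Notch3 (0.817 ± 0.215), Nrarp (0.797 ± 0.146), Hey1 (0.447 ± 0.17) and Notch4 (0.0553 ± 0.0161), each as mean ± SD of 3 libraries. In shCon the order was Jag1 (56.2 ± 7.24), Hes1 (21.4 ± 6.35), Rbpj (16.6 ± 2.54), Notch2 (15.9 ± 3.24), Notch1 (3.22 ± 0.723), Jag2 (1.05 ± 0.188), Nrarp (0.894 ± 0.114), Hey1 (0.639 ± 0.167), Notch4 (0.0823 ± 0.0328) and Notch3 (0.052 ± 0.00995). Hes1, Rbpj and Notch2 in shCon, and Notch3 and Nrarp in shCopa, were within their spread of one another. Jag1 stood at the 93.5th percentile of tested genes on this scale and Notch4 at the 0.46th. The pair Jag2 and Notch1 changed places between the groups.

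Among 9511 tested genes outside these lists with a mean of at least 10 CPM, the 3 whose centred log2 CPM over the 6 libraries lay closest to Jag1 were Pax8, Plekhg3 and Srbd1, with root-mean-square differences of 0.023, 0.023 and 0.030. Pax8, a transcription factor, was at 198, 212 and 203 CPM in shCopa and 116, 153 and 144 CPM in shCon. The 3 closest to Hes1 were Zdhhc7, Slc12a9 and Ndufa5, at 0.066, 0.067 and 0.068, and Ndufa5 stood at 12.4, 12.3 and 11 CPM in shCopa and 24.3, 14.2 and 13.8 CPM in shCon. Zdhhc7 and Slc12a9 fell (edgeR adjusted p = 0.0452 and 0.042), and Ndufa5 did not pass (0.102). These genes were chosen for closeness over all 6 libraries, shCon 1 included. That they share its high value with Hes1 therefore follows from the choice.

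The promoter just upstream of the annotated start was inspected for the letters TGGGAA, the core that RBPJ binds, on both strands, and for the longer GTGGGAA, which contains that core. RefSeq windows of build GRCm38.p6 were matched by symbol for 8 of the 10 genes, all but Hes1 and Hey1. Of 32536 windows of 250 bases in the whole table, 21.6% hold TGGGAA and 5.43% hold GTGGGAA. The core was found in 1 of the 8 genes, Rbpj itself, at positions -149 (plus strand) and -65 (minus strand). Positions are counted at the first base of the match, with -1 as the last base before the start. Rbpj also has a window at another annotated start (chr5:53590236-53590485), which overlaps that window. There the same minus-strand match lies at -205 and is the only core. The longer form was in none of the 8. Windows were also sought for Dll4, Hey2 and Heyl, which all rose, and none was found for Heyl. Outside the 10 genes, no window of a gene that fell or did not pass was looked up. These windows therefore cannot show whether the motif goes with a rise. That of Dll4 holds neither form, and that of Hey2, a repressor of the same family as Hey1, holds the longer form at position -207 on the minus strand. Notch3, Jag1 and Jag2, which rose, and Notch1, which fell, hold neither in this window. A match is a description of letters and not of binding. The windows of Notch3 (chr17:32166891-32167140, minus strand), Notch1 (chr2:26503823-26504072, minus strand), Rbpj (chr5:53590096-53590345, plus strand) and Hey2 (chr10:30842784-30843033, minus strand) are shown 5′ to 3′ on the gene's strand, as those of the receptors that passed and of the genes that hold the core, with TGGGAA or its reverse complement in capitals.
Notch3: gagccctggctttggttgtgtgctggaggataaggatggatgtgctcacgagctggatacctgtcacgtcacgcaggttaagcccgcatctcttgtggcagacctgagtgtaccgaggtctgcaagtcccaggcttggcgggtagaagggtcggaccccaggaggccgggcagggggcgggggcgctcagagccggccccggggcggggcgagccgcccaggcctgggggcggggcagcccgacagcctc
Notch1: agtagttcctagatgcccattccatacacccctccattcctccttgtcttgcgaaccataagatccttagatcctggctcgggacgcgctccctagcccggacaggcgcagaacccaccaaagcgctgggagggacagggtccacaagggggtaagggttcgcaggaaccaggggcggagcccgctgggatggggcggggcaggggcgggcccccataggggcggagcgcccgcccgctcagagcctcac
Rbpj: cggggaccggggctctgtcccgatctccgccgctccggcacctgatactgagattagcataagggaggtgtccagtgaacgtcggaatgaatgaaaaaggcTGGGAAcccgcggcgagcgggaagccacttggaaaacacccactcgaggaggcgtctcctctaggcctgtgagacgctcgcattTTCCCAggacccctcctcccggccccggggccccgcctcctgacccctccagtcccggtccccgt
Hey2: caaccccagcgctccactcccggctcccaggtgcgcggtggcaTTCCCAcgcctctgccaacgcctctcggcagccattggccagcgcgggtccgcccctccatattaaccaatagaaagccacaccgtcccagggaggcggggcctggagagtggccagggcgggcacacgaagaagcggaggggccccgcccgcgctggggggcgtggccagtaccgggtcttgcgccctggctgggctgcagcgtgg
GC content was 68.8% in the Notch3 window, 66% in that of Notch1, 65.2% in that of Rbpj and 71.6% in that of Hey2.

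The rest of the pathway was described from 8 lists that hold 86 other genes, of which 73 were tested. Of these, 16 rose, 21 fell and 36 did not pass, which is 50.7% called beside 36.5% of all tested genes. The lists were chosen with earlier results of these data known, so this share is a description only. The median over these 73 was -0.07 on the log2 scale. Without shCon 1, 20 rose and 34 fell, and without shCopa 1, shCopa 2 or shCopa 3, 12 fell in each fit. Calls over all genes moved in the same way. They were 8439 of 15273 tested genes without shCon 1. Leaving out shCopa 1, shCopa 2 or shCopa 3 gave 3710 of 15118, 3565 of 15166 and 3533 of 15156. The counts given below for fits without a library are to be read beside these totals.

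In the lists of receptor processing, the genes that passed with all 6 libraries were lower. Furin, the Golgi protease that makes the first cut of the receptor, was at 67.4, 74.1 and 64.4 CPM in shCopa, against 159, 161 and 145 CPM in shCon, a fall to 44.3% of the control level (log2 fold change -1.18 ± 0.10 (SE), edgeR adjusted p = 0.000169). Rfng, a fringe enzyme that extends the O-fucose on the receptor, fell with a log2 fold change of -1.36 ± 0.16, and Pofut1, which adds that fucose, with -0.26 ± 0.08. Rfng was at 4.68 CPM in shCopa and 12 CPM in shCon on average. Lfng, a more abundant fringe gene, was at 39.6 CPM in shCopa and 44.1 CPM in shCon and did not pass (edgeR adjusted p = 0.517). Of the 6 genes in this list 3 fell, 2 did not pass and 1 was not tested, and Pofut1 lost its call without any library other than shCon 1. Without shCon 1, 1 gene of this list rose and 3 fell. Adam10, the protease that cuts the receptor after ligand binding, was at 121, 121 and 120 CPM in shCopa, against 177, 227 and 245 CPM in shCon (log2 fold change -0.84 ± 0.13 (SE), edgeR adjusted p = 0.00241). Aph1a and Aph1c, alternative subunits of the gamma-secretase that releases the intracellular part, fell with log2 fold changes of -0.44 ± 0.12 and -1.04 ± 0.28. In the proteolysis list 4 of 9 fell and 5 did not pass. Without shCon 1, 7 of these 9 fell, and without shCon 2 or any shCopa library 1 fell, with the calls of Aph1a, Aph1b and Aph1c lost.

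In the list of endocytosis and ubiquitylation 7 of 16 tested genes fell, 2 rose and 7 did not pass. Neurl1b and Neurl1a, ubiquitin ligases of the family that drives ligand uptake, fell with log2 fold changes of -1.30 ± 0.10 and -1.02 ± 0.10 (edgeR adjusted p = 0.000141 and 0.0004). Neurl1b was at 10.1, 9.64 and 9.66 CPM in shCopa and at 23.5, 24.9 and 24 CPM in shCon, so both groups were tight and far apart. Dtx2, a Deltex ubiquitin ligase, fell with -0.82 ± 0.10. The members that rose were Epn2, an epsin endocytic adaptor, with 0.75 ± 0.09, and Fbxw7, which marks the nuclear part of Notch for degradation, with 0.63 ± 0.15. Fbxw7 lost its call without shCopa 2. Without shCon 1, 11 of the list fell.

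Most nuclear cofactors did not pass. Among 8 coactivators Kat2b, a histone acetyltransferase, rose (log2 fold change 0.62 ± 0.11) and Maml3, a Mastermind coactivator, fell (-1.79 ± 0.40) at 0.734 ± 0.353 CPM in shCopa and 2.57 ± 0.745 CPM in shCon, a call lost without shCopa 2, and 6 did not pass. Without shCon 1, 3 coactivators rose and 3 fell, and without shCon 2, 2 rose. Among 15 corepressors 2 rose, 3 fell and 10 did not pass. Tle3, a Groucho corepressor, rose (0.37 ± 0.09), as did Bend6, a partner of RBPJ (1.59 ± 0.42), but Tle3 lost its call without shCopa 2 or 3, and Bend6 without shCopa 1, shCopa 2 or shCon 3. Without shCon 1, 6 corepressors fell, and without any 1 shCopa library none did, with 1 without shCon 2 and 2 without shCon 3.

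Relatives of Hes1 and Hey1 passed in both directions. Of 10 other HES, HEY and related factors 5 were tested, and 4 rose and 1 fell. Heyl, the third member of the HEY family, had 43, 37 and 33 counts in shCopa, against 2, 2 and 8 counts in shCon. The groups did not overlap, and the fitted change was 9.72-fold (log2 fold change 3.28 ± 0.48 (SE), edgeR adjusted p = 0.00181). The size rests in part on shCon 3, the highest shCon library, since the log2 fold change was 4.18 without it and ran from 2.96 to 3.34 without any other library. Hey2 was at 9.08, 10.1 and 10 CPM in shCopa and 4.69, 6.96 and 5.14 CPM in shCon and rose 1.74-fold. Bhlhe40 and Bhlhe41, related repressors that also answer to stress and the circadian clock, rose 2.06-fold and 1.55-fold. Hes6, which in the nervous system counteracts Hes1, fell (log2 fold change -0.93 ± 0.22), with 27.1, 29.1 and 25.3 CPM in shCopa and 71.5, 42.2 and 41.4 CPM in shCon, and lost its call without shCopa 1 or shCopa 3. Leaving out shCon 1, its highest library, gave a smaller log2 fold change of -0.62 ± 0.08, which passed. The 4 rises kept their calls with each library left out. That of Hey2 did so narrowly, with edgeR adjusted p = 0.0498 without shCopa 2 and 0.0491 without shCopa 3.

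**Figure D4:**
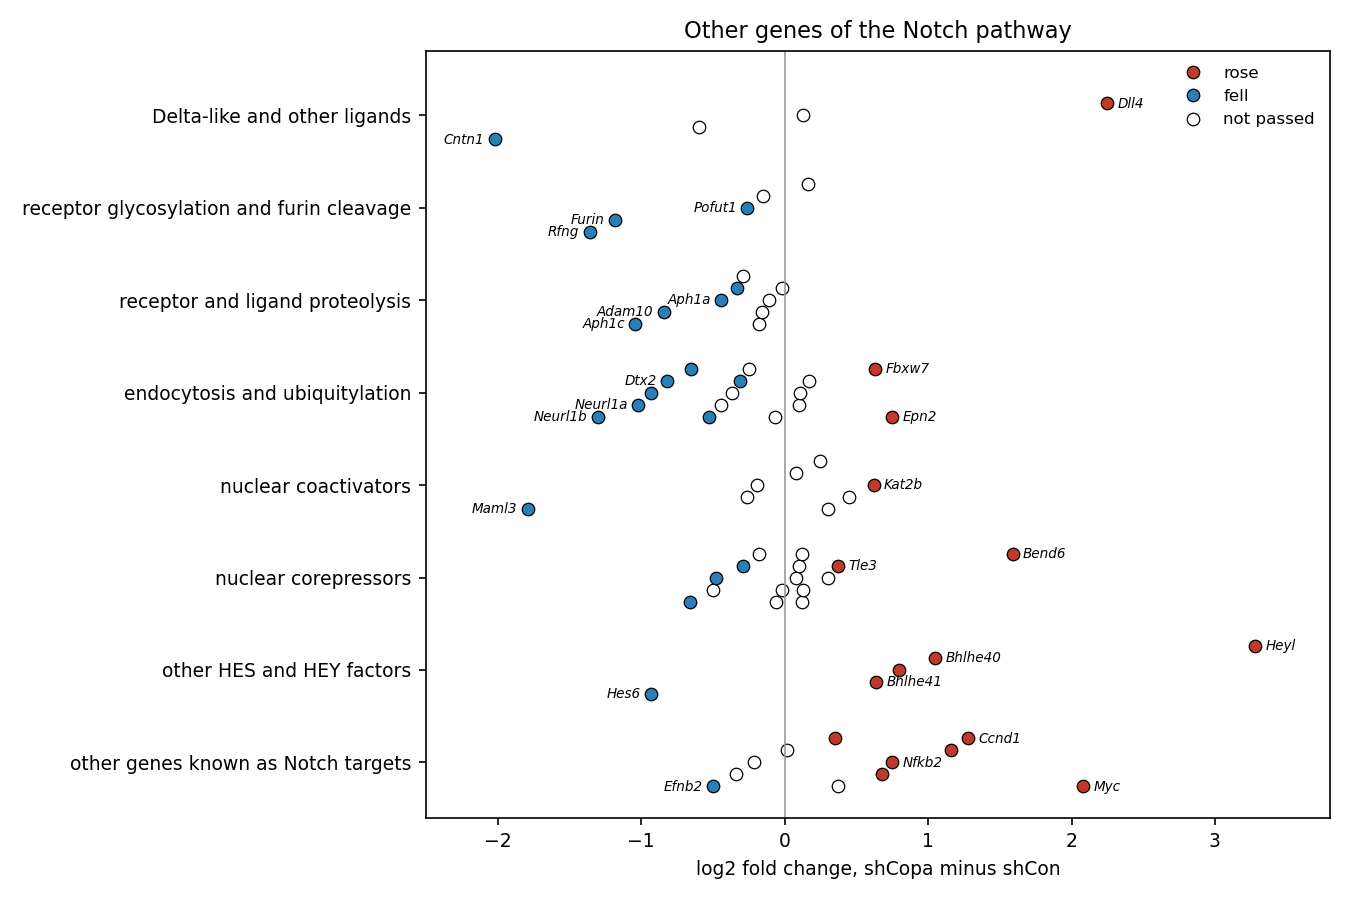
Log2 fold change, shCopa minus shCon, of the tested genes in the other lists of the Notch pathway, 1 row per list, with red for genes that rose, blue for genes that fell and white for genes that did not pass. The 2 lists of receptor processing hold no gene that rose with all libraries, while Dll4 at 2.25, Heyl at 3.28 and Myc at 2.08 lie far to the right.

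Among 14 other genes known as Notch targets in some tissues 11 were tested, of which 6 rose, 1 fell and 4 did not pass. Myc, a driver of growth that Notch switches on in T cell leukaemia, was at 127, 143 and 141 CPM in shCopa, against 33.8, 34.9 and 28.7 CPM in shCon, a 4.22-fold rise (edgeR adjusted p = 4.45e-05). Ccnd1, cyclin D1, stood at 2736, 2921 and 2951 CPM in shCopa and 1134, 1238 and 1164 CPM in shCon and rose 2.43-fold. Nfkb2, a subunit of NF-kB, rose 1.68-fold. Efnb2, an ephrin, was the member that fell (log2 fold change -0.50 ± 0.10). Sox9, a bile duct factor that Notch can induce in liver, was at 152, 147 and 132 CPM in shCopa and 159, 160 and 178 CPM in shCon, and its log2 fold change of -0.21 ± 0.10 did not pass (adjusted p = 0.137). All of these genes have other regulators, which were not examined here.

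Dll4, Heyl, Notch3 and Notch4 are also known from blood vessels, so markers of vessel and other cells are given here, and their part in these results was not tested. Of 10 endothelial markers, 2 rose, 2 fell, 1 did not pass and 5 were not tested. Kdr rose at 1.15, 1.82 and 2.63 CPM in shCopa and 0.139, 0.0429 and 0.0411 CPM in shCon, and Vwf rose 2.58-fold. Flt1 fell to 53.7% and Esam to 46.5% of the shCon level. Tie1 and Emcn had no count in any library, Cdh5 reached at most 0.0864 CPM, and 6 of the 10 were under 1 CPM throughout. The sum of the 10 was 35.7 to 38.8 CPM in shCopa and 53.9 to 68.2 CPM in shCon, most of it Flt1.

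Of 10 fibroblast and mural cell markers, 1 rose, 1 fell, 3 did not pass and 5, all under 1 CPM throughout, were not tested. Acta2, the smooth muscle actin of mural cells, rose at 1.2, 1.77 and 1.31 CPM in shCopa and 0.325, 0.129 and 0.288 CPM in shCon. Pdgfrb, a receptor of mural cells, fell at 0.487, 1.12 and 0.506 CPM in shCopa and 2.37, 2.4 and 2.01 CPM in shCon. Rgs5, another mural marker, was at 1.51, 0.605 and 0.759 CPM in shCopa and 0.372, 0.429 and 0.329 CPM in shCon and did not pass (edgeR adjusted p = 0.0511). These mural markers thus differed in direction. The sum of the 10 was 171 to 185 CPM in shCopa and 185 to 224 CPM in shCon, most of it Dcn.

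Of 10 macrophage and leukocyte markers, 2 rose, 2 fell, 1 did not pass and 5 were not tested (Adgre1, Itgam, Aif1, Cd3e and Ms4a1, all under 1 CPM throughout). Ptprc rose at 0.93, 1.08 and 1.26 CPM in shCopa and 0, 0.0429 and 0.0411 CPM in shCon, and Lyz2 rose 5.63-fold. Csf1r fell to 53.2% and Cd14 to 49.4% of the shCon level. The sum was 157 to 170 CPM in shCopa and 277 to 287 CPM in shCon, most of it Csf1r and Cd14. Of 11 hepatocyte markers, 2 rose (Alb 2.29-fold and Hnf4a 2.99-fold), 1 fell (Fah, to 57.2% of the shCon level), 2 did not pass and 6, all under 1 CPM throughout, were not tested. Their sum was 45 to 47.8 CPM in shCopa and 33.7 to 40.4 CPM in shCon.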

How the data were processed

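RNA-seq of 3 shCopa and 3 shCon libraries was used, with groups and replicate numbers from the sample titles. The authors deposited estimated counts per Ensembl gene, of which 10.6% to 11.9% per library were not whole. The build was GRCm39 and the aligner HISAT2 2.0.5, and the tools also include featureCounts, HTSeq, Trimmomatic and DESeq2, per the submitters' processing notes. Which of them made these counts, with which annotation and strand option, is not given in the sources used here. Counts were rounded. Symbols from GENCODE M21 were found for 52081 of 55414 identifiers, and the rest held 0.201% to 0.464% of counts.

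shCopa was tested against shCon with edgeR 4.0.16 in R 4.3.3 (TMM, filterByExpr, robust quasi-likelihood F test, Benjamini-Hochberg adjustment over 14807 genes, threshold 0.05). "Rose" and "fell" mean passing that threshold. The SE given with an edgeR log2 fold change is its absolute value divided by the square root of the F statistic. It is thus derived from the test and approximate. CPM values use TMM-scaled library sizes, and 3 counts, a floor that covers counting error only, equal 0.122 to 0.153 CPM. Exon lengths are the union of GENCODE M21 basic exons. Counts were simulated for 14807 genes, of which 14539 passed the filter, with 67, 67 and 66 genes changed 1.5-fold, 2-fold and 4-fold. Of these changes 22.4%, 73.1% and 98.5% were recovered, with 12 false calls among 141. The changed genes were few and all above 1 CPM, and the length trend of shCon 1 was not simulated. These shares are thus not the power in the real data, where 36.5% of tested genes passed. Alternatives were RLE or no scaling, other filters, DESeq2 1.42.0, limma-voom (limma 3.58.1), a replicate block, a threshold of 0.01, each library left out and offsets for length and GC content, which were chosen after seeing the data.

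The members and lists were chosen with earlier results of these data known. Named from each list were up to 3 called genes with the smallest adjusted p and those against the majority, and Hey2, Sox9 and some markers besides. 1 gene that this rule takes is not reported here. No pair of libraries agreed within sampling noise (chi-square per degree of freedom of 4.35 or more).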

Additional observations from a re-analysis of the deposited data

How the results depend on the processing

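Notch1, Notch3, Jag1 and Jag2 kept their direction and their calls in every alternative listed under the processing. The size for Jag2 moved, from a log2 fold change of 0.86 ± 0.17 in the main fit to 1.22 ± 0.16 with length and GC offsets. Rbpj and Hes1 passed as lower, so that 3 members fell, with no low-count filter (log2 fold changes -0.38 and -0.58), with DESeq2 (-0.36 and -0.56) and with length and GC offsets (-0.46 and -0.48). With 1 library left out, 1 to 3 members fell, Rbpj ran from -0.48 to -0.29, Hes1 from -0.69 to -0.28 and Notch2 from -0.10 (without shCon 1) to 0.17, 12 to 34 of the wider genes fell, and 3533 to 8439 genes were called. At an adjusted p of 0.01, 3177 genes were called, and 10 of the wider genes rose and 11 fell. With the replicate number as a block, 3903 genes were called, 3 members rose and 1 fell, and 15 of the wider genes rose and 14 fell. Deviations of same-numbered libraries from their group means had r = -0.162, -0.0583 and -0.114. With 3 libraries a group, and shCon 1 apart from its group, these values cannot show whether libraries were prepared in pairs. Notch4 was not tested at 1 CPM in 3 libraries. Hey1, Nrarp and Notch4 rest on counts of 6 to 57 a library, which limits what can be detected.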
